A study of Mus musculus with 6 samples.

Results

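The G1 cyclins, the kinases they activate and the transcription factor E2F1 carry a cell from rest to the start of DNA replication. The group described here holds 9 genes, chosen by symbol: Ccnd1, Ccnd2, Ccnd3, Ccne1, Ccne2, Cdk2, Cdk4, Cdk6 and E2f1. They are 9 of the 19938 genes that the array's annotation names from probe sets with exactly 1 symbol, and each of the 9 had 1 probe set. They were measured in long-term hematopoietic stem cells (LT-HSCs), the rarely dividing bone marrow cells that sustain blood formation, of female C57BL/6 mice aged 8 to 12 weeks. In the Lxn-/- mice exons 2 to 4 of the latexin gene are deleted and latexin protein is lacking, per the labels, while WT mice have an intact gene and protein. Latexin is an inhibitor of metallocarboxypeptidases. Each genotype had 3 biological samples with 1 array each, and a sample was a pool of nearly 100000 cells sorted from 10 to 20 mice, so p-values measure the spread between pools and no value belongs to a single mouse.

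In the resting stem cell the retinoblastoma family of pocket proteins holds E2F factors on the promoters of replication genes. Growth signals raise the D cyclins, which activate CDK4 and CDK6, and these kinases begin the phosphorylation of the pocket proteins. Freed E2F1 then drives transcription of the E cyclins among other genes, and cyclin E with CDK2 completes the phosphorylation and starts S phase. In human LT-HSCs the amount of CDK6 is known to set how fast a cell leaves quiescence, and in mice CDK6 is known to act in stem cell activation.

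Values are the authors' log2 expression values, normalized by robust multi-array average (RMA), and an increase of 1 is a doubling of signal. Lxn, the deleted gene, read 8.66, 8.78 and 8.78 in Lxn-/- replicates 1, 2 and 3, against 8.99, 9.09 and 9.55 in WT replicates 1, 2 and 3. The difference, Lxn-/- minus WT, was -0.47 (SE 0.14, limma adjusted p = 0.993), and the position of the probes relative to the deleted exons was not known, so this value does not check the deletion. Probe sets of odorant and pheromone receptors, genes used mainly by sensory neurons, gave a background level with a 95th percentile of 6.93. All 9 genes lay above that level on all 6 arrays. All 11 measured LT-HSC markers did so on average, among them Kit at 12.89 in Lxn-/- and 12.85 in WT and Procr at 10.28 in Lxn-/- and 10.18 in WT. Ly6a was not analysed here. Cd34, whose protein the sort excluded, averaged 13.18 in Lxn-/- and 13.12 in WT, and Flt3, a marker of multipotent progenitors, 11.99 in Lxn-/- and 11.93 in WT, so transcripts of both stood well above the receptor level. The labels call the second excluded marker Flt2.

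None of the 9 genes could be called different between Lxn-/- and WT stem cells. In limma, fitted across all 23410 named probe sets, 0 of 9 passed an adjusted p of 0.05, where 0% of all probe sets passed. At an unadjusted p under 0.05 there were 0 of 9, against 3.9% of all probe sets, although Ccnd2 lay at that border. Differences ran from -0.22 for Ccne1 to 0.10 for Cdk6. The mean was lower in Lxn-/- for 7 genes and higher for 2, Cdk6 and Ccne2, and quantile normalization turned Cdk2 and Cdk4 to 0.0031 and 0.0032. The median of the 9 differences was -0.05, beside -0.0099 over all probe sets tested, of which 54.5% had a lower mean in Lxn-/-. For 8 of the 9 genes the 95% confidence interval lay within 0.5 log2 units of 0 on either side, and Ccne1 was the exception. Ccnd2 was the 1 gene of the 9 whose values did not overlap between genotypes, where 8.98% of all probe sets showed no overlap.

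**Figure D1:**
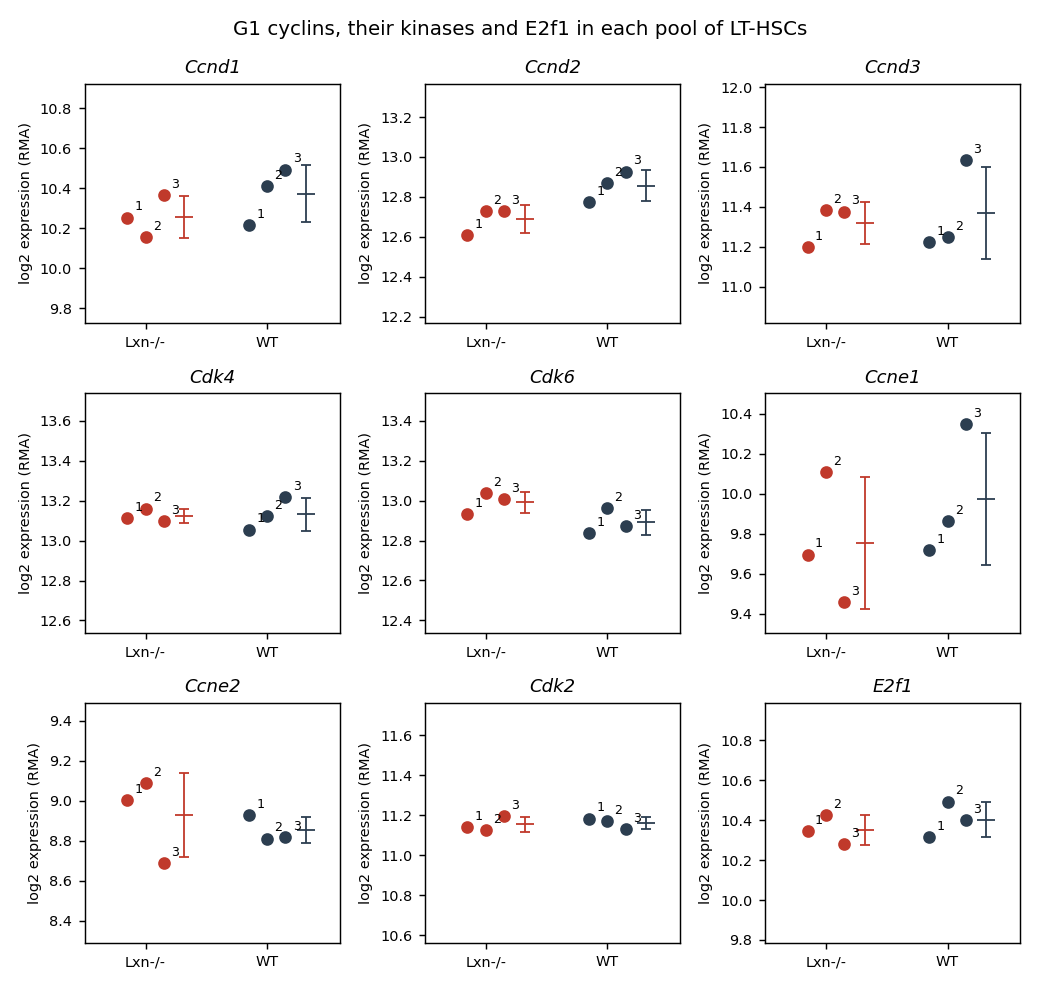
Log2 expression of each gene in the Lxn-/- pools (red, left) and the WT pools (dark, right), numbered by replicate, with the mean and SD of 3 pools as a bar beside them. Each panel spans the same number of log2 units, so steepness can be compared between panels. Ccnd2 is the panel in which the genotypes do not overlap, with Lxn-/- means of 12.69 against 12.86 in WT, and Ccne1 has the widest scatter.

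Among the D cyclins, Ccnd2 had the lowest p. Ccnd2, the D cyclin known for its role in B cells among other blood cells, read 12.61, 12.73 and 12.73 in Lxn-/- replicates 1, 2 and 3, against 12.78, 12.87 and 12.93 in WT replicates 1, 2 and 3. Every Lxn-/- pool lay below every WT pool, by 0.045 log2 units at the nearest. Its difference was -0.17 (SE 0.073, 95% confidence interval -0.34 to 0.000083), a WT level 1.12-fold that of Lxn-/-. The limma p was 0.0501 unadjusted and 0.993 adjusted, and the exact two-sided permutation p was 0.1, the smallest that 3 pools against 3 allow. Other settings put the unadjusted limma p on both sides of 0.05. It was lower with the replicate block (0.0399), dim probe sets left out (0.0468) and array weights (0.0186). So it was with a trend and robust prior (0.0291) and without WT replicate 1 (0.0318). Under all remaining settings it was above 0.05, up to 0.114 without WT replicate 2, 0.142 without WT replicate 3 and 0.165 without Lxn-/- replicate 1. Adjusted limma p-values were 0.628 and above throughout. Of all probe sets tested, 5.38% showed no overlap with Lxn-/- lower. Markers of B cells were lower in mean beside it: this held for all 7 measured, with a median difference of -0.37 (-0.21 without WT replicate 3). Their mean level was 9.62, 9.76 and 9.63 in the Lxn-/- pools and 10.05, 9.75 and 10.24 in the WT pools, in replicate order. All 6 plasma cell markers were lower in mean as well, with a median difference of -0.52. Their mean level was 10.65, 10.68 and 10.68 in the Lxn-/- pools and 11.40, 11.04 and 11.25 in the WT pools. Among the WT pools, Ccnd2 was lowest in replicate 1 and both marker lists were lowest in replicate 2. Neither list thus ordered the WT pools as Ccnd2 did. The part of those cells in the Ccnd2 signal was not tested, and in pools of sorted cells fewer cells of a type and less RNA per cell cannot be told apart. Both marker lists were chosen with earlier results of these data known, so their counts carry no test.

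Ccnd1, the D cyclin induced by mitogens in many tissues, read 10.25, 10.15 and 10.36 in Lxn-/- replicates 1, 2 and 3, against 10.21, 10.41 and 10.49 in WT replicates 1, 2 and 3. The ranges overlapped, with WT replicate 1 inside the Lxn-/- range. The difference was -0.12 (SE 0.094, limma adjusted p = 0.993). Leaving out single pools moved it from -0.19, without WT replicate 1, to -0.055, without WT replicate 3.

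Ccnd3, a D cyclin known for its role in T cell and erythroid precursors, read 11.20, 11.38 and 11.38 in Lxn-/- replicates 1, 2 and 3, against 11.23, 11.25 and 11.64 in WT replicates 1, 2 and 3. WT replicate 3 stood above the other 5 pools. The difference was -0.05 (SE 0.12, limma adjusted p = 0.993), and it changed sign to 0.082 without WT replicate 3. The mean level of the 6 erythroid markers measured, from a list of 10, was 9.70, 10.01 and 9.56 in Lxn-/- replicates 1, 2 and 3. It was 9.84, 9.91 and 10.26 in WT replicates 1, 2 and 3. Lxn-/- replicate 3 had the lowest erythroid level of the 6 pools, while its Ccnd3 lay above that of Lxn-/- replicate 1 and WT replicates 1 and 2. Of these 6 markers, 5 were also highest in WT replicate 3, which was highest for 27.03% of the 16324 probe sets above the receptor level. The exception was Alas2, which encodes the erythroid enzyme that begins heme production, at 7.61, 7.44 and 7.68 in the Lxn-/- pools and 8.02, 7.901 and 7.62 in the WT pools. The mean level of 6 T and NK cell markers was 8.27, 8.99 and 8.31 in the Lxn-/- pools and 8.34, 8.37 and 8.64 in the WT pools. It was thus highest in Lxn-/- replicate 2. The part of erythroid or T cells in the Ccnd3 value was not tested.

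The kinases of the D cyclins varied little. Cdk6 read 12.93, 13.04 and 13.01 in Lxn-/- replicates 1, 2 and 3, against 12.84, 12.96 and 12.87 in WT replicates 1, 2 and 3. The genotypes overlapped only through Lxn-/- replicate 1, which lay below WT replicate 2. The mean was 12.99 ± 0.053 in Lxn-/- and 12.89 ± 0.065 in WT (SD, n = 3 each), a difference of 0.10 (SE 0.068, 95% confidence interval -0.056 to 0.26), or 1.07-fold. The limma p was 0.174 unadjusted and 0.993 adjusted. The interval covers ratios of Lxn-/- to WT from 0.962 to 1.196. Cdk6 kept a positive difference under all 15 other settings, from 0.054 to 0.14, with adjusted p-values of 0.814 and above in limma. The replicate block, the other sets of probe sets, the other prior and the mean of a gene's probe sets could not move that difference.

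Cdk4, the partner kinase, read 13.11, 13.16 and 13.10 in Lxn-/- replicates 1, 2 and 3, against 13.06, 13.12 and 13.22 in WT replicates 1, 2 and 3. All Lxn-/- values fell inside the WT range. The difference was -0.0096 (SE 0.069, 95% confidence interval -0.17 to 0.15; limma adjusted p = 0.999). Its sign turned under 3 of the 15 other settings, some of which could not move it, so no direction is given for it.

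CDK4 and CDK6 bind the same cyclins, and their genes differ in the sequence just before the transcription start, which is shown for that reason. The RefSeq promoter table (build GRCm38.p6) matched 6 of the 9 genes, and the stretches below are the 250 bases before the start, on the plus strand in both cases, at chr10:127063285-127063534 for Cdk4 and chr5:3343643-3343892 for Cdk6. Capitals mark the E-box CACGTG, a palindrome that reads alike on both strands and that MYC, MAX and related factors can bind.
Cdk4: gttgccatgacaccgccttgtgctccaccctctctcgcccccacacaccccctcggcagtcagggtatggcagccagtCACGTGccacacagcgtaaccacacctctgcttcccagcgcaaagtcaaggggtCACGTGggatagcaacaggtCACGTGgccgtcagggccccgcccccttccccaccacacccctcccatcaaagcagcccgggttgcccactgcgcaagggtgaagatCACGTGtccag
Cdk6: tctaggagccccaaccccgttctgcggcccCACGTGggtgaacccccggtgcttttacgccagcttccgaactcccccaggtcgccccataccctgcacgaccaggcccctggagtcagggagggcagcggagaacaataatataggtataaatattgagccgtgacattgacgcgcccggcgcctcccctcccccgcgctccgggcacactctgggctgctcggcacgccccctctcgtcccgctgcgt
The Cdk4 stretch holds 4 E-boxes, which begin 172, 118, 98 and 11 bases before the start, and the Cdk6 stretch holds 1, at 220 bases before it. Of 32851 such windows in the table, 6.02% hold at least 1 E-box and 7 windows hold 4 or more. A longer motif of E2F factors, TTTCGCGC or TTTGGCGC on either strand, was in 0.654% of the windows and in 0 of the 7 windows of these 6 genes, which says only that these letters are not there. These matches describe the sequence and are not measured binding sites.

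**Figure D2:**
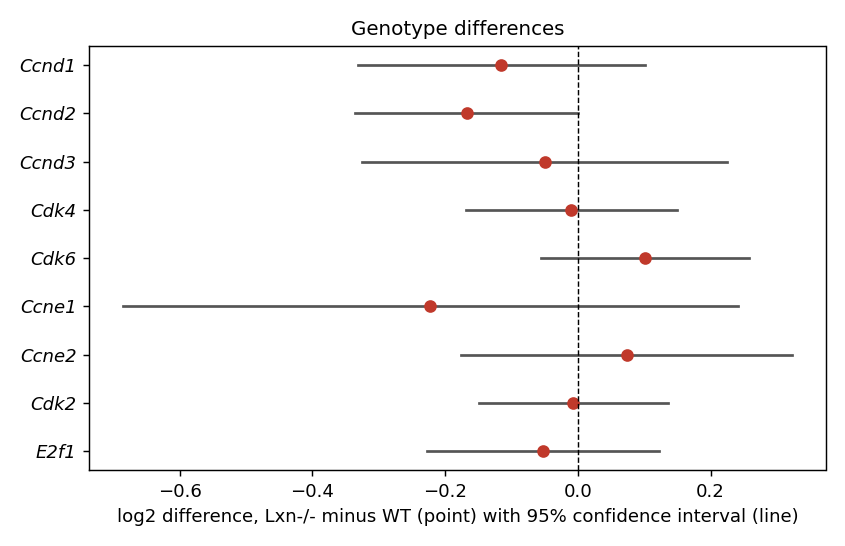
Difference in log2 expression, Lxn-/- minus WT, for each gene (point) with limma's 95% confidence interval (line). All 9 intervals reach 0, that of Ccnd2 by its upper end of 0.000083, and the interval of Ccne1 is the widest, from -0.69 to 0.24.

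Of the 9 genes, Ccne1 scattered most between pools. Ccne1, the main E cyclin and a target of E2F1, read 9.69, 10.11 and 9.46 in Lxn-/- replicates 1, 2 and 3, against 9.72, 9.86 and 10.35 in WT replicates 1, 2 and 3. Lxn-/- replicate 2 was higher than WT replicates 1 and 2, and the ranges overlapped over much of their length. The mean was 9.75 ± 0.33 in Lxn-/- and 9.98 ± 0.33 in WT (SD, n = 3 each), a difference of -0.22 (SE 0.20, limma adjusted p = 0.993). Leaving out single pools moved it from -0.40, without Lxn-/- replicate 2, to -0.036, without WT replicate 3. Values without WT replicate 1 (-0.35) and without Lxn-/- replicate 3 (-0.074) also moved by over 1.5 times.

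Ccne2, the second E cyclin, read 9.003, 9.09 and 8.69 in Lxn-/- replicates 1, 2 and 3, against 8.93, 8.81 and 8.82 in WT replicates 1, 2 and 3. Lxn-/- replicates 1 and 2 lay above all WT pools and Lxn-/- replicate 3 below all of them. The SD was 0.21 in Lxn-/- and 0.066 in WT (n = 3 each). The difference of 0.074 (SE 0.11, limma adjusted p = 0.993) became 0.19 without Lxn-/- replicate 3 (limma adjusted p = 0.884) and -0.0071 without Lxn-/- replicate 2. WT replicate 3, the pool with the highest Ccne1, was below Lxn-/- replicates 1 and 2 and WT replicate 1 for Ccne2, so the E cyclins did not order the pools alike.

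Cdk2, the kinase of the E cyclins, was the steadiest of the 9 genes. It read 11.14, 11.13 and 11.20 in Lxn-/- replicates 1, 2 and 3, against 11.18, 11.17 and 11.13 in WT replicates 1, 2 and 3. All 6 values lay within 0.07 log2 units. The difference was -0.0066 (SE 0.062, 95% confidence interval -0.15 to 0.14; limma adjusted p = 0.999), and its sign likewise turned under 3 of 15 other settings.

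E2f1, the activator E2F that pocket proteins restrain, read 10.35, 10.43 and 10.28 in Lxn-/- replicates 1, 2 and 3, against 10.31, 10.49 and 10.40 in WT replicates 1, 2 and 3. The ranges overlapped over most of their length. The difference was -0.052 (SE 0.076, limma adjusted p = 0.993), and the interval of -0.23 to 0.12 held changes of either sign. Leaving out single pools moved it from -0.097, without WT replicate 1, to -0.0073, without WT replicate 2, and it was -0.016 without Lxn-/- replicate 3.

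Among the 16324 named probe sets with a mean above the receptor level, the SD within genotype, pooled over both genotypes, was 0.033 for Cdk2, which placed it at percentile 2.82. Cdk6 (0.059), Cdk4 (0.063), Ccnd2 (0.074) and E2f1 (0.082) followed at percentiles 16.6, 19.2, 28.2 and 34.6, all below the median SD of 0.10. The remaining cyclins lay above it, with Ccnd1 at percentile 66.6 (SD 0.13), Ccne2 at 79.9 (0.16), Ccnd3 at 85.4 (0.18) and Ccne1 at 97.0 (0.33). The 3 kinases and E2f1 therefore had less scatter than 4 of the 5 cyclins, and Ccnd2 was the exception among the cyclins. These percentiles describe 6 pools and carry no test.

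**Figure D3:**
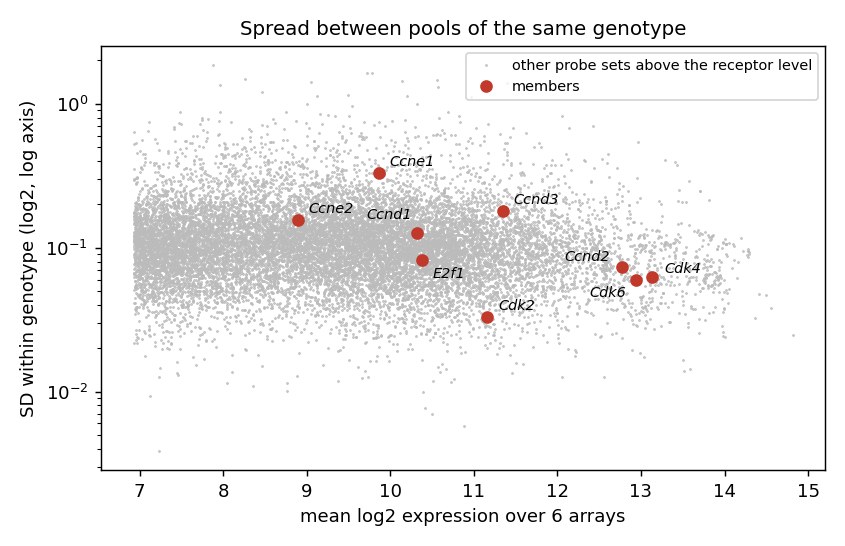
SD within genotype (log2 units, on a log axis) against the mean log2 expression over 6 arrays, for the 9 genes (red) and all other named probe sets above the receptor level (grey). Cdk2 sits near the lower edge at 0.033 and Ccne1 near the upper edge at 0.33.

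By pool, WT replicate 3 had the highest value of the 6 for 5 of the 9 genes, Ccnd1, Ccnd2, Ccnd3, Ccne1 and Cdk4. Over the 16324 probe sets above the receptor level this pool was highest for 27.03%. Lxn-/- replicate 3 was lowest for Ccne1, Ccne2 and E2f1, where it was lowest for 18.24% of those probe sets. WT replicate 3 also stood apart on the first principal component of all named probe sets, where scores were -12.6, 7.97 and -10.7 for the Lxn-/- pools and -10.6, 2.63 and 23.3 for the WT pools, in replicate order.

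Ccne1 was the 1 gene of the 9 whose values spanned at least 0.5 log2 units, at 0.89. Of 13769 named genes above the receptor level, those nearest to its profile over the 6 arrays were Hpn, which encodes the membrane protease hepsin, Cyth3, which encodes an exchange factor of ARF proteins, and Steap3, which encodes a ferrireductase of iron uptake in erythroid precursors. After each gene's mean was subtracted, their root mean square differences from Ccne1 were 0.025, 0.026 and 0.033 log2 units, where Ccne1 itself varied by 0.29 about its mean. The likeness is over 6 arrays that share each pool's cell make-up.

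The deviation of Ccne1 from its own mean was -0.17, 0.24 and -0.41 in Lxn-/- replicates 1, 2 and 3, against -0.15, -0.0032 and 0.48 in WT replicates 1, 2 and 3. The median deviation of 6 erythroid markers was -0.21, 0.15 and -0.28 in the Lxn-/- pools and -0.12, 0.035 and 0.41 in the WT pools, which puts the 6 pools in the same order as Ccne1, an order that Klf1, Epor and Car1 follow each by itself and Alas2, Tfrc and Slc4a1 do not. For 7 neutrophil markers it was 0.51, -0.81 and 1.25 in the Lxn-/- pools and 0.92, 0.0021 and -1.62 in the WT pools, lowest where Ccne1 was highest and highest where Ccne1 was lowest. S100a8, S100a9, Ltf, Camp and Ngp, genes of later neutrophil stages, carried that median, while Elane and Mpo, granule enzymes of early stages, were lowest in Lxn-/- replicate 3, at 12.59 and 13.34. The mean level of the neutrophil markers was 11.42, 10.34 and 11.95 in the Lxn-/- pools and 11.74, 11.09 and 9.68 in the WT pools. For 22 E2F target genes of S phase entry the median deviation was -0.0055, 0.085 and -0.17 in the Lxn-/- pools. In the WT pools it was -0.081, 0.035 and 0.14. Their pool order was that of Ccne1, except that Lxn-/- replicate 1 and WT replicate 1 changed places. The same held for 19 mitosis genes. The part of erythroid and neutrophil cells in the Ccne1 values was not tested.

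**Figure D4:**
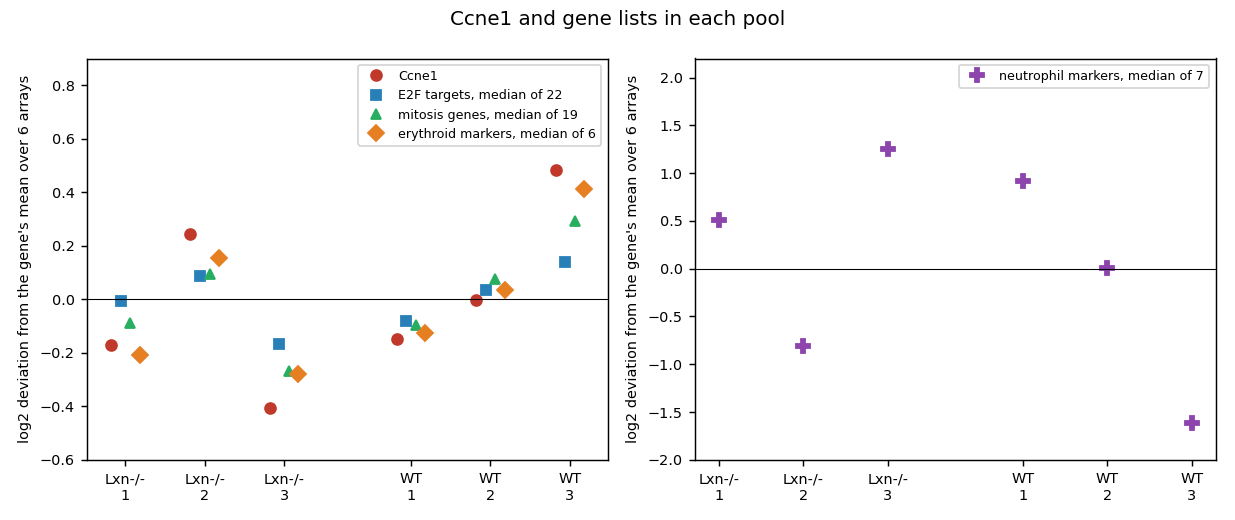
Left, deviation of Ccne1 from its mean over 6 arrays, with the median deviation of E2F target genes, mitosis genes and erythroid markers; right, the same for neutrophil markers on a wider axis. All are in log2 units, with Lxn-/- pools on the left of each panel and WT pools on the right. Ccne1 and the erythroid markers are lowest in Lxn-/- replicate 3 (-0.41 and -0.28) and highest in WT replicate 3 (0.48 and 0.41). The median of the neutrophil markers is highest in Lxn-/- replicate 3 (1.25) and lowest in WT replicate 3 (-1.62).

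Genes around the G1 kinases were read from 6 lists with 95 measured genes. In limma 0 of the 95 passed an adjusted p of 0.05 in either direction, and 1 had an unadjusted p under 0.05, or 1.05% against 3.9% of all probe sets. The values did not overlap between genotypes for 5 genes, or 5.26%, against 8.98% of all probe sets.

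Among the inhibitors of cyclin-dependent kinases and the pocket proteins, with 9 of 10 genes measured, the mean was higher in Lxn-/- for 4 and lower for 5, with a median difference of -0.024. Without WT replicate 3 that median was 0.044. Cdkn1b, an inhibitor of cyclin E and CDK2 that also binds cyclin D complexes, was the gene under an unadjusted p of 0.05, with 11.25, 11.12 and 11.35 in Lxn-/- replicates 1, 2 and 3, against 11.13, 10.99 and 10.89 in WT replicates 1, 2 and 3. Lxn-/- replicate 2 fell just below WT replicate 1, so the groups overlapped, and the difference was 0.24 (SE 0.090, limma adjusted p = 0.993). Cdkn2a, whose locus encodes an inhibitor of CDK4 and CDK6, differed by -0.14 (SE 0.073) without overlap at means of 7.34 in Lxn-/- and 7.48 in WT, close to the receptor level. Cdkn2d and Cdkn2b, further inhibitors of CDK4 and CDK6, differed by 0.085 (SE 0.071) and -0.067 (SE 0.072).

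Of 9 relatives and dimer partners of E2F1, the mean was lower in Lxn-/- for 7 and higher for 2, with a median difference of -0.076. Without single pools that median ran from -0.14, without Lxn-/- replicate 2, to 0.0069, without Lxn-/- replicate 3. E2f6, a repressor E2F, read 10.14, 10.15 and 10.07 in Lxn-/- replicates 1, 2 and 3, against 10.27, 10.26 and 10.24 in WT replicates 1, 2 and 3, a difference of -0.13 (SE 0.062) without overlap. E2f2, an activator like E2F1, averaged 8.94 in Lxn-/- and 9.17 in WT, a difference of -0.23 (SE 0.11) with overlap. E2f7, an atypical repressor, differed by -0.076 (SE 0.068) and E2f4, which acts with the pocket proteins in resting cells, by -0.092 (SE 0.12). The adjusted p was 0.993 for each of these 4 in limma.

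Among 13 regulators of G1 kinase activity and cyclin turnover the mean was higher in Lxn-/- for 6 and lower for 7, with a median of -0.068 that became 0.015 without Lxn-/- replicate 3 and -0.018 without WT replicate 1. Cdk7, the kinase that activates other cyclin-dependent kinases, read 9.37, 9.26 and 9.15 in Lxn-/- replicates 1, 2 and 3, against 9.14, 9.11 and 9.001 in WT replicates 1, 2 and 3, a difference of 0.18 (SE 0.080) without overlap. Mnat1, the assembly factor of that kinase, differed by 0.15 (SE 0.089) with overlap. Wee1, which inhibits CDK1 and CDK2, differed by -0.12 (SE 0.072), and Cdc37, a chaperone partner for CDK4, by -0.099 (SE 0.064) without overlap.

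Of the 22 measured E2F target genes of S phase entry, 18 had a lower mean in Lxn-/- and 4 a higher one, with a median difference of -0.072 and 0 genes without overlap. Ccna2, the cyclin that takes over CDK2 in S phase, read 11.50, 11.87 and 11.51 in Lxn-/- replicates 1, 2 and 3, against 11.60, 11.83 and 12.11 in WT replicates 1, 2 and 3. Rrm2 and Tk1, which supply deoxynucleotides, differed by -0.25 (SE 0.15) and -0.21 (SE 0.13), and Mybl2, an activator of late cell cycle genes, by -0.17 (SE 0.13). The median was -0.026 without WT replicate 3, -0.028 without Lxn-/- replicate 3, -0.13 without Lxn-/- replicate 2 and -0.13 without WT replicate 1.

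All 19 measured mitosis genes had a lower mean in Lxn-/-, with a median difference of -0.16 and 0 genes without overlap. Ube2c, Kif20a, Prc1 and Bub1b, genes of mitotic exit, cytokinesis and the spindle checkpoint, differed by -0.29 (SE 0.13), -0.27 (SE 0.14), -0.27 (SE 0.15) and -0.19 (SE 0.11). The list median was -0.078 without Lxn-/- replicate 3, -0.087 without WT replicate 3, -0.26 without Lxn-/- replicate 2 and -0.26 without WT replicate 1. By pool, the median deviation of these genes was -0.089, 0.093 and -0.27 in Lxn-/- replicates 1, 2 and 3, against -0.097, 0.075 and 0.29 in WT replicates 1, 2 and 3. Lxn-/- replicate 2 thus lay above WT replicates 1 and 2, as it did for Ccne1.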

How the data were processed

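RNA of 3 Lxn-/- and 3 WT pools was measured on Affymetrix MoGene 1.0 ST arrays from 100 ng of total RNA. The authors deposited log2 expression values after RMA normalization, per the series' design text. RMA and Partek 6.0 are named, per the submitters' processing notes. How background was handled, and at which level probes were summarised, stayed not given in the sources used here. Precision is limited by the number of arrays.

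Of 35557 probe sets, GEO's platform annotation gave 1 symbol to 21789 and several to 1621, and left 12147 unnamed here. The 23410 named probe sets entered a linear model in limma 3.58.1 under R 4.3.3 (lmFit and eBayes, no covariates, two-sided, Benjamini-Hochberg over all of them, threshold 0.05). Differences are Lxn-/- minus WT. A gene was represented by its brightest probe set by mean over 6 arrays. The receptor level is the 95th percentile of the means of 1205 odorant and pheromone receptor probe sets. Single values were compared by an exact permutation test over samples (SciPy 1.17.1).

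The members, lists and tests were chosen with earlier results of these data known. Named were the 9 members, Lxn and the 4 genes of lowest unadjusted p per pathway list where none passed. The plan was to name up to 2 of lowest p per marker list, and the text does not keep to it. Kit, Procr and Flt3 were not those of lowest p, and all measured erythroid and neutrophil markers are named. Named too, for members spanning 0.5 log2 units, were the 3 nearest other genes. Of the marker lists, the 6 T and NK cell markers had a median difference of 0.029 and the 4 megakaryocyte markers of 0.12, which became -0.16 and -0.0046 without Lxn-/- replicate 2. Same-numbered pools were not taken as pairs, since their deviations correlated by 0.37, -0.072 and -0.081. Alternatives were a replicate block, 2 further normalizations, 3 other sets of probe sets, array weights, another prior, the mean of a gene's probe sets and leaving out each array.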

Additional observations from a re-analysis of the deposited data

How the results depend on the processing

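No probe set was called by limma under any of the 14 other settings tried or in the fit reported above: counts were 0 in either direction in each. In the fit reported 914 of 23410 probe sets had an unadjusted p under 0.05. The other settings ran from 526, of 16324 tested with dim probe sets left out, to 1807, of 23410 tested with array weights. With the replicate block limma's lowest adjusted p was 0.829, and it changed no call. The replicate block, the other prior and the 3 other sets of probe sets leave every difference as it is. So does the mean of a gene's probe sets, since each gene had 1. With these settings counted, the differences of Ccnd1, Ccnd2, Ccne1, Cdk6 and E2f1 kept their sign under 15 settings. When single arrays were left out they ranged from -0.19 to -0.055 for Ccnd1, -0.21 to -0.13 for Ccnd2, -0.40 to -0.036 for Ccne1, 0.074 to 0.14 for Cdk6 and -0.097 to -0.0073 for E2f1. Signs turned for the others. Ccnd3 ranged from -0.12 to 0.082 (0.0099 without Lxn-/- replicate 1), Ccne2 from -0.0071 to 0.19, Cdk2 from -0.027 to 0.0075 (0.0044 without WT replicate 1) and Cdk4 from -0.048 to 0.034 (0.0033 without Lxn-/- replicate 3). Quantile normalization gave 0.0031 for Cdk2 and 0.0032 for Cdk4. The cause was not tested. All 9 genes lay above the receptor level on every array, so none is a bound set by background.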

Other observations

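Cyclins and cyclin-dependent kinases that act outside G1 had a median difference of 0.046 over 23 measured genes, 15 with a higher and 8 with a lower mean in Lxn-/-, and none passed in limma. That median was 0.0067 without WT replicate 3 and 0.0091 without Lxn-/- replicate 1, 0.077 without Lxn-/- replicate 2, 0.025 without Lxn-/- replicate 3 and 0.031 without WT replicate 2. Ccnl1, a cyclin of transcription and splicing, read 11.70, 11.39 and 11.63 in Lxn-/- replicates 1, 2 and 3, against 11.56, 11.26 and 10.97 in WT replicates 1, 2 and 3, a difference of 0.31 (SE 0.15, limma adjusted p = 0.993). Cdk11b, the kinase that binds L cyclins, read 10.51, 10.28 and 10.43 in Lxn-/- replicates 1, 2 and 3, against 10.43, 10.11 and 9.84 in WT replicates 1, 2 and 3, a difference of 0.28 (SE 0.14, limma adjusted p = 0.993). Both were lowest in WT replicate 3, the pool in which Ccne1 was highest. Ccnf, a cyclin of G2 that is part of a ubiquitin ligase, differed by -0.23 (SE 0.13), and Cdk17 by 0.099 (SE 0.064) with no overlap between genotypes.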
